A study of Homo sapiens with 3 samples.

Results

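The comparison is between H446 cells kept for 48 h with 3-bromoascochlorin (BAS) at 5 µM and the same cells kept for 48 h with vehicle. Genes were included where the mean of the vehicle and 5 µM libraries reached 1 FPKM (fragments per kilobase of transcript and per unit of mapped library size), a level normalized for transcript length and depth. This left 11479 of 16793 gene symbols (68.4%), and 5314 symbols stayed below the filter. H446 is an established line from a human small cell lung cancer, so both groups are 1 line and differ by the treatment alone, as far as the labels say. A library at 10 µM for 48 h, of the same line and set against the same vehicle library, completes the study, whose title names antitumor effects and the MAPK pathway. Each group is 1 library. No difference below has a replicate check, and no test, error or p-value could be given: the size of a difference is all that was measured.

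BAS is a brominated derivative of ascochlorin, a fungal metabolite of the meroterpenoid class. Ascochlorin itself is known as an inhibitor of the mitochondrial respiratory chain. When cells lack amino acids, accumulate unfolded protein or lose mitochondrial function, kinases phosphorylate the translation factor eIF2. General translation then slows while the transcription factor ATF4 is made, and ATF4 with its partners switches on genes for amino acid synthesis, transport and stress adaptation, a programme called the integrated stress response.

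The vehicle library carried the genes of a NEUROD1-type neuroendocrine line. NEUROD1, a neuronal lineage transcription factor, was at 105 FPKM with vehicle, 93.2 with 5 µM and 91.6 with 10 µM. INSM1, a neuroendocrine transcription factor, was at 72.8 FPKM with vehicle, 81.8 with 5 µM and 95.1 with 10 µM. POU2F3, which marks the tuft cell type of small cell lung cancer, was below the filter, with 0.05 FPKM with vehicle, 0.07 with 5 µM and 0.01 with 10 µM. Of 18 measured markers of cells that should not be in the culture (blood, vessel, connective tissue, liver and alveolar cells), 6 passed the filter. The endothelial cadherin CDH5, at 57.6 FPKM with vehicle, 55.8 with 5 µM and 52 with 10 µM, and the fibrillar collagens COL3A1 and COL1A1 were the highest of them in all 3 libraries. SFTPC was listed at 0 with 5 µM and HBA1 at 0 with vehicle.

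Most genes differed little. The median difference in log2(FPKM + 1), 5 µM minus vehicle, was 0.02 over the 11479 genes, with quartiles at -0.15 and 0.18 and 5th and 95th percentiles at -0.41 and 0.48. In all, 6077 genes lay above vehicle, 5376 below and 26 were equal, and 95.4% stayed within 1.5-fold on that scale. A gene is called higher or lower here where it differed by at least 1 on the log2(FPKM + 1) scale, that is 2-fold. That scale understates the change of low genes. A called gene below 1 FPKM in 1 of the 2 libraries passed the filter through the other library, in which it is high. There were 61 higher genes (0.531% of those compared) and 28 lower genes (0.244%), shown in the plot of 5 µM against vehicle. The median level of the higher genes was 3.76 FPKM with vehicle and 10.7 with 5 µM, and of the lower genes 8.6 and 2.6 FPKM. Over all genes compared it was 12.2 FPKM in both libraries. Each of these levels enters the difference that makes the call, so neither alone places the called genes by abundance. By level, 0.766% of genes with a mean of 1 to 2 FPKM were called higher and 0.766% lower, against 0.429% and 0% of genes at 100 FPKM or more. In the bins between, starting at 2, 5, 10 and 30 FPKM, the higher share was 0.798%, 0.462%, 0.531% and 0.292%. The lower share there was 0.373%, 0.185%, 0.186% and 0.146%. Because these are bulk libraries, fewer cells expressing a gene and less RNA per cell cannot be told apart, here or below.

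**Figure D1:**
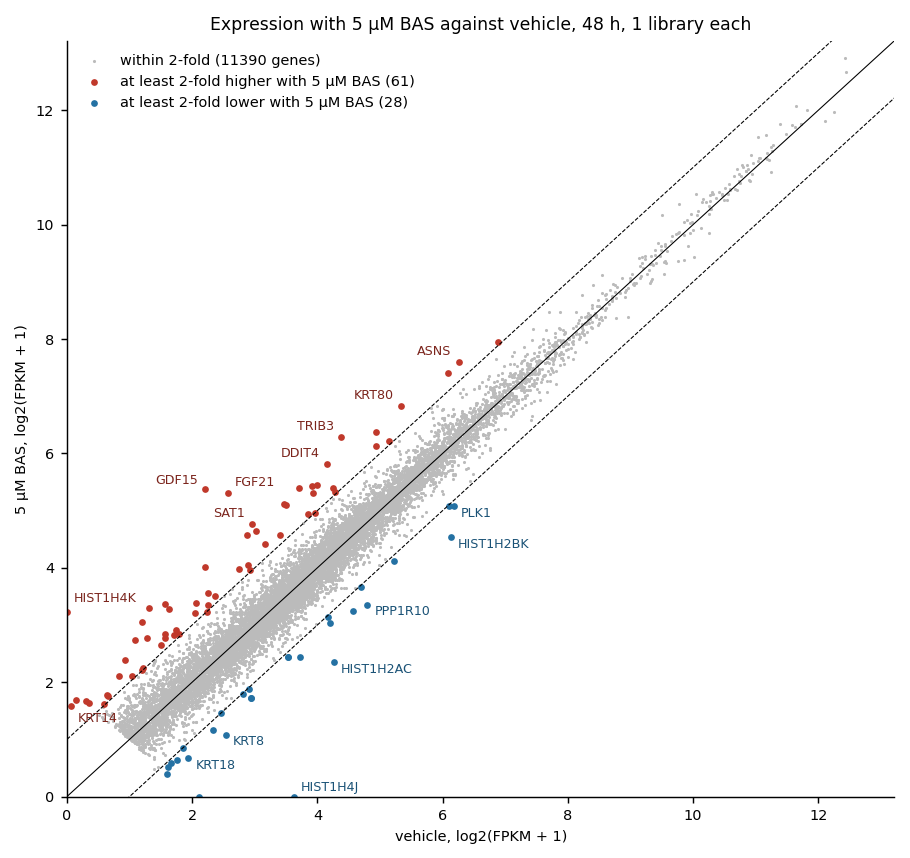
Level of each gene in the vehicle library (x axis) and the 5 µM BAS library (y axis), both as log2(FPKM + 1). Red points are the 61 genes at least 2-fold higher with 5 µM, blue points the 28 at least 2-fold lower, grey points the rest, and dashed lines mark 2-fold. Most genes lie close to the diagonal, and GDF15 and FGF21 stand farthest above it apart from HIST1H4K.

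The 10 µM values given beside each gene below come from 1 library set against the same vehicle library, so a low or high vehicle value would enter both differences. They are printed as levels for that reason.

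Values at the limits show how close the nearest genes were. Just past the 2-fold limit were SLC25A35 (3.69 FPKM with vehicle, 8.38 with 5 µM) and SESN2 (14.5 and 30.2), and just short of it were MT1X (12.7 and 26.4) and FADS3 (5.2 and 11.4). On the lower side, GPR20 (4.48 and 1.74) and PIF1 (2.63 and 0.81) were just past it, and SUN2 (13.7 and 6.43) and FAM72D (4.72 and 1.93) just short of it. At the expression filter, ARFGEF3 and TRDMT1 were just inside, each with a mean of 1 FPKM, and ATG16L2, at 0.77 and 1.22 FPKM with vehicle and 5 µM, just outside.

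**Figure D2:**
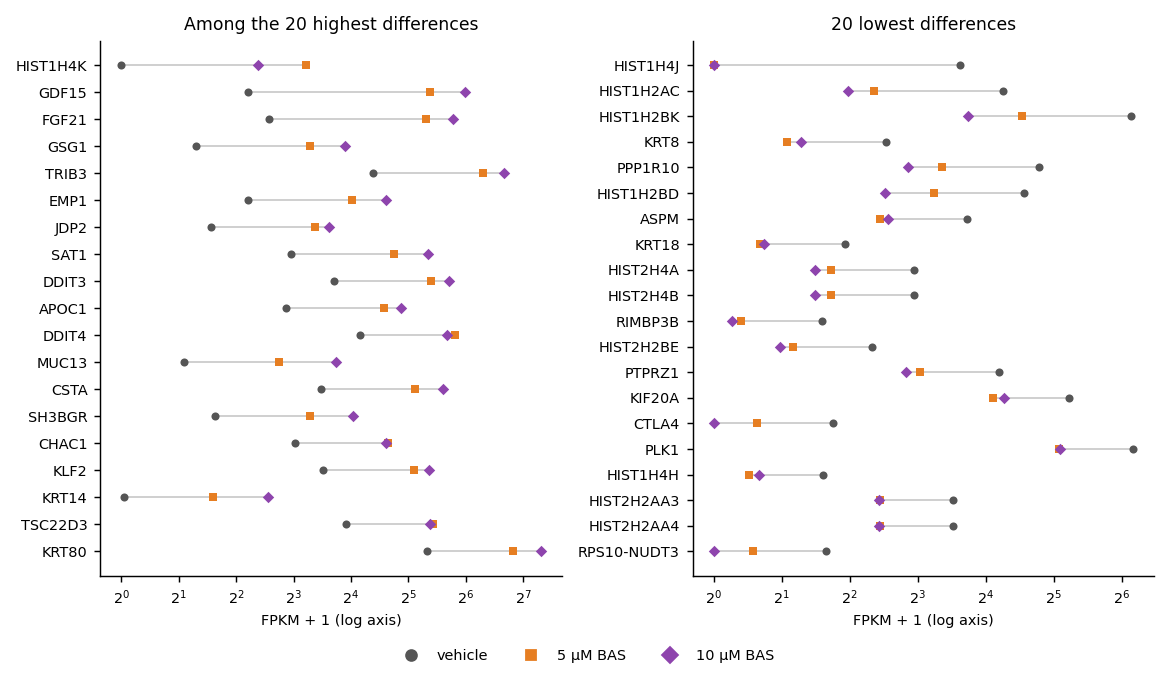
FPKM + 1 on a log axis for genes among the 20 highest differences (left, without those not reported here) and the 20 lowest (right), with grey circles for vehicle, orange squares for 5 µM BAS and purple diamonds for 10 µM BAS. Each point is 1 library. GDF15 and FGF21 lie farthest from vehicle on the left after HIST1H4K, which is listed at 0 with vehicle.

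The genes of the integrated stress response held the largest group of higher genes. Of its 22 regulators that passed the filter, 20 lay above vehicle, 7 were called higher (TRIB3, DDIT3, JDP2, ATF3, CHAC1, PPP1R15A and DDIT4) and none lower, with a median difference of 0.46 against 0.02 over all genes compared. Over all genes compared, 52.9% lay above vehicle, 0.531% were called higher and 0.244% lower. These are the shares to set beside each list below. TRIB3, a pseudokinase that binds ATF4 and restrains it, was at 19.8 FPKM with vehicle, 77.3 with 5 µM and 99.98 with 10 µM, a plain FPKM ratio of 3.9 at 5 µM. DDIT3, which encodes the transcription factor CHOP, was at 12 FPKM with vehicle, 41.2 with 5 µM and 51.1 with 10 µM, a ratio of 3.44. The vehicle library was the lowest for both. JDP2, a bZIP factor that dimerizes with JUN and ATF proteins, was at 1.96 FPKM with vehicle, 9.35 with 5 µM and 11.3 with 10 µM. ATF3, a further bZIP factor, was at 7.92 FPKM with vehicle, 20.2 with 5 µM and 24.4 with 10 µM. CHAC1, an enzyme that breaks down glutathione, was at 7.15 FPKM with vehicle, 24.1 with 5 µM and 23.5 with 10 µM. For CHAC1 the treated libraries were close to each other and well above vehicle. PPP1R15A (GADD34), the subunit that brings protein phosphatase 1 to eIF2, was at 18 FPKM with vehicle, 41.2 with 5 µM and 50.2 with 10 µM, a ratio of 2.29.

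ATF4 itself did not reach the limit. It was at 234 FPKM with vehicle, 354 with 5 µM and 331 with 10 µM, a log2(FPKM + 1) difference of 0.60. Its control is largely at the level of translation, which these data do not measure. The partners CEBPB, at 28.1 and 53.1 FPKM with vehicle and 5 µM, and CEBPG, at 30.8 and 42.8 FPKM, also stayed short of the limit. The 4 kinases of eIF2 differed less: EIF2AK3 (PERK) had a difference of 0.39, EIF2AK2 (PKR) 0.04, EIF2AK4 (GCN2) 0.02 and EIF2AK1 (HRI) 0.0041.

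The promoters of some of these genes hold the letters of the C/EBP-ATF response element, the composite site that ATF4 binds with a C/EBP partner. The windows shown are of higher genes and of members of the stress and amino acid lists. In each, the letters lie before the transcription start and the window touches no annotated exon. The set is not a complete one, since some promoters were left out when windows were drawn up for display. Sequences are from RefSeq on GRCh38.p14, 5′ to 3′ on the strand of the gene, with the match in capitals (TGATGNAA, or its reverse complement where the match is on the other strand). This build is not the hg19 of the deposited values, and is used here for the promoter letters only.
FGF21, plus strand, chr19:48755459-48755488: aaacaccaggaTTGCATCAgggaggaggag
FUT1, minus strand, chr19:48755459-48755488: ctcctcctcccTGATGCAAtcctggtgttt
ATF3, plus strand, chr1:212565205-212565234: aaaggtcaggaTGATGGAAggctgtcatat
JDP2, plus strand, chr14:75427995-75428021: atagccggggcTGATGCAAcccgtccc
CEBPG, plus strand, chr19:33374060-33374089: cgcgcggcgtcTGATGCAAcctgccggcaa
AARS, minus strand, chr16:70289675-70289704: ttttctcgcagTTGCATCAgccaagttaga
PPP1R15B, minus strand, chr1:204412026-204412055: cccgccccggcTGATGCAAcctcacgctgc
YARS2, minus strand, chr12:32756076-32756105: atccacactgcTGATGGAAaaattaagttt
The match begins 54 bases before the start of FGF21 and 119 before that of FUT1, a neighbouring gene on the other strand. These are the same 30 bases read on both strands, and both genes were called higher. The match lies 16 bases before the start in JDP2, 42 in CEBPG, 191 in ATF3 and 187 in AARS (AARS1 in RefSeq). It lies 227 bases before the start in PPP1R15B, the constitutive counterpart of GADD34, and 197 in YARS2, a mitochondrial tyrosyl-tRNA synthetase. These 2 genes were not called, with differences of 0.10 and 0.07.

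The letters TGATGNAA were searched on both strands of every listed promoter of a gene, from 250 bases before to 50 after each start, and a gene counted once however many starts it has. Matches that overlap the other motif searched, TTTGAA, were not removed. They occurred in 250 of the 9410 compared genes that have a promoter in the table (2.66%) and in 1217 of all 27305 symbols of the table (4.46%). Among higher genes with a promoter, 7 of 44 (15.9%) held them: FGF21, FUT1, ATF3, JDP2, CHAC1, ASNS and AGT. Of the lower genes, 0 of 24 held them. Among the cytosolic aminoacyl-tRNA synthetases the count was 6 of 13 and among the mitochondrial ones 1 of 14. A match describes the letters only. TRIB3, DDIT3 and GDF15 are without a match in their windows or without a listed window, and this says nothing of binding elsewhere.

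Secreted stress hormones had the highest list median, 1.06 over the 8 of 12 measured genes that passed, with 7 above vehicle, 4 called higher and none lower. GDF15, a hormone that signals through a hindbrain receptor to reduce food intake, was at 3.6 FPKM with vehicle, 40.4 with 5 µM and 62.6 with 10 µM, a plain ratio of 11.2 at 5 µM. FGF21, a hormone of fasting and mitochondrial stress, was at 4.93 FPKM with vehicle, 38.4 with 5 µM and 53.9 with 10 µM, a ratio of 7.8. These were the 2 genes with the largest differences outside the histone genes. INHBE, a subunit of activin E, was at 29.6 FPKM with vehicle, 82.2 with 5 µM and 80.5 with 10 µM. VEGFA, the growth factor of vessel formation, was at 6.45 FPKM with vehicle, 15.6 with 5 µM and 19.3 with 10 µM, a ratio of 2.42. NTS, which encodes the neuropeptide neurotensin, was the member below vehicle, at 65.5 and 49.2 FPKM with vehicle and 5 µM. UCN, which encodes the peptide urocortin and is in no list, was at 0.78 FPKM with vehicle, 3.29 with 5 µM and 2.95 with 10 µM and was called higher. It passed the filter through the treated library.

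Enzymes that make amino acids were above vehicle together, mostly by less than 2-fold. ASNS, which makes asparagine, was called higher, at 75.4 FPKM with vehicle, 192 with 5 µM and 240.1 with 10 µM. PCK2, the mitochondrial enzyme that makes phosphoenolpyruvate, was called higher too, at 29.5 FPKM with vehicle, 69 with 5 µM and 72.2 with 10 µM. Of 15 serine, glycine and one-carbon enzymes that passed, 12 lay above vehicle and none was called, with a median of 0.27. All enzymes of the 3-step serine branch lay above vehicle: PHGDH was at 174 FPKM with vehicle, 287 with 5 µM and 294 with 10 µM. PSAT1 was at 76.4 FPKM with vehicle, 133 with 5 µM and 141 with 10 µM. PSPH was at 27.4 FPKM with vehicle, 42.4 with 5 µM and 48.3 with 10 µM. SHMT2, which passes the carbon of serine to folate in mitochondria, had a difference of 0.63, and MTHFD2, of the same mitochondrial pathway, 0.27. Among 20 other enzymes of amino acid metabolism, 17 lay above vehicle and 1, ASNS, was called, with a median of 0.18. ASS1, which joins citrulline and aspartate, was at 115 FPKM with vehicle, 201 with 5 µM and 192 with 10 µM. CBS, of the transsulfuration pathway, was at 16.6 and 32.1 FPKM with vehicle and 5 µM, but shares most of its 50-base sequences with a near-identical copy, so its value is uncertain.

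Of 21 amino acid transporters that passed, 15 lay above vehicle and 1 was called higher, with a median of 0.14, or 0.31 once the trends of all differences with GC content and length of the transcript, given further on, were removed. The called one was SLC6A9, a glycine transporter, at 3.76 FPKM with vehicle, 9.2 with 5 µM and 10.7 with 10 µM. The heavy and light chains of the exchanger for large neutral amino acids lay just short of the limit: SLC3A2 at 55.2 FPKM with vehicle, 111 with 5 µM and 128 with 10 µM and SLC7A5 at 38.3 FPKM with vehicle, 73.6 with 5 µM and 87.4 with 10 µM. The glutamine transporter SLC1A5 had a difference of 0.55.

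The 2 sets of aminoacyl-tRNA synthetases, which load amino acids onto tRNAs for the cytosolic and the mitochondrial ribosome, had different medians. For the cytosolic set 16 of 20 lay above vehicle, with a median of 0.21 and no call in either direction. For the mitochondrial set 9 of 17 lay above, with a median of 0.01 and no call. The highest cytosolic members were WARS, for tryptophan, at 59.3 FPKM with vehicle, 113 with 5 µM and 136 with 10 µM, and AARS, for alanine, at 56.8 FPKM with vehicle, 97 with 5 µM and 95.4 with 10 µM. The highest mitochondrial one, PARS2, had a difference of 0.25.

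Restraint of mTORC1, the kinase complex that couples nutrients to growth, was represented by 14 genes with a median of -0.03. The list median was near that of all genes, but 2 of its stress-induced members were called higher. DDIT4, which acts through the TSC complex, was at 16.8 FPKM with vehicle, 55.1 with 5 µM and 49.9 with 10 µM. SESN2, a leucine sensor, was at 14.5 FPKM with vehicle, 30.2 with 5 µM and 28.1 with 10 µM. EIF4EBP1, the translation repressor that mTORC1 inactivates, was at 206 FPKM with vehicle, 352 with 5 µM and 368 with 10 µM, a difference of 0.77.

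Chaperone lists showed no called gene, as was the case for 44 of the 65 lists. Chaperones of the endoplasmic reticulum, with the genes of its unfolded protein response, had a median of -0.06 over 28 genes, with 11 above vehicle and 16 below. HSP90B1, the main chaperone of the HSP90 class in that compartment, was at 169 FPKM with vehicle, 117 with 5 µM and 123 with 10 µM, while HERPUD1, a degradation factor, had a difference of 0.63 and XBP1 0.57. Cytosolic heat shock genes had a median of -0.01 over 20 genes, and HSPA8, the constitutive HSP70, was at 1028 FPKM with vehicle, 688 with 5 µM and 629.8 with 10 µM. Among mitochondrial chaperones and proteases LONP1, the matrix protease, had the largest difference, at 94.5 FPKM with vehicle, 139.6 with 5 µM and 127 with 10 µM. Of 25 autophagy genes 19 lay above vehicle, with a median of 0.10 and no call. SQSTM1, the cargo receptor p62, was at 79.1 FPKM with vehicle, 139 with 5 µM and 174 with 10 µM, and MAP1LC3B, which coats autophagosomes, at 19.2 FPKM with vehicle, 29.8 with 5 µM and 39.1 with 10 µM.

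**Figure D3:**
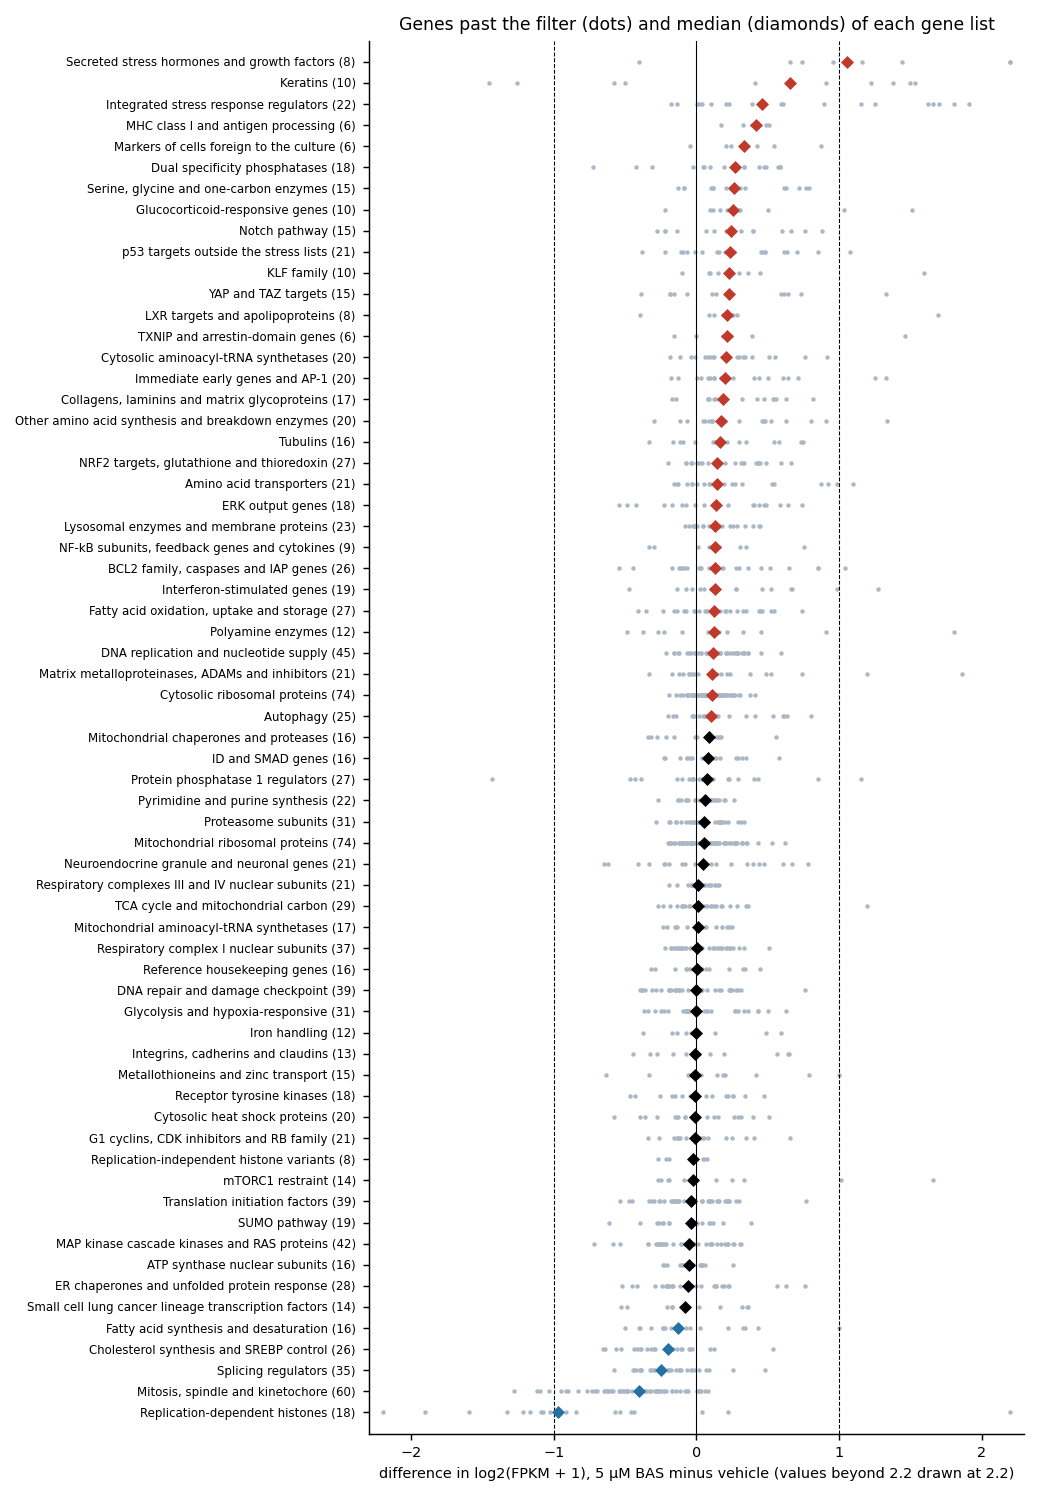
Difference in log2(FPKM + 1), 5 µM BAS minus vehicle, for each gene past the filter (grey dots) in 65 gene lists, with list medians as diamonds (red above 0.1, blue below -0.1, black between) and the number of genes in brackets. Values beyond 2.2 are drawn at 2.2 and dashed lines mark 2-fold. Secreted stress hormones lie at the top and replication-dependent histones at the bottom, and 28 of the 65 medians are within 0.1 of 0.

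The polyamine and redox genes held a few large differences. SAT1, the acetyltransferase that starts the breakdown of polyamines, was called higher, at 6.75 FPKM with vehicle, 26.1 with 5 µM and 39.6 with 10 µM, a plain ratio of 3.86, while the median of the 12 polyamine genes was 0.12, or -0.03 with GC and length trends removed. ODC1, which makes the first polyamine, had a difference of 0.32. Iron handling genes were split, 6 above vehicle and 6 below, with a median of -0.01 and no call. Both ferritin chains, which store iron, lay above vehicle, the light chain FTL at 873 FPKM with vehicle, 1315 with 5 µM and 1457 with 10 µM and the heavy chain FTH1 at 1057 FPKM with vehicle, 1482 with 5 µM and 1693 with 10 µM. Of 27 NRF2 target and thiol genes, 22 lay above vehicle and none was called, with a median of 0.14. NQO1, a quinone reductase, was at 5.07 FPKM with vehicle, 8.59 with 5 µM and 11.2 with 10 µM, and HMOX1, haem oxygenase, at 3.79 FPKM with vehicle, 5.51 with 5 µM and 6.38 with 10 µM. Of 15 metallothionein and zinc transport genes, 7 lay above vehicle and 8 below, with a median of -0.01 and no call. Of the metallothioneins, small proteins that bind zinc, MT1X was at 12.7 FPKM with vehicle, 26.4 with 5 µM and 29.8 with 10 µM and MT2A at 20.01 FPKM with vehicle, 35.4 with 5 µM and 57.3 with 10 µM. The zinc importer SLC39A10 lay below vehicle, with a difference of -0.63.

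Genes of epithelial surfaces and keratins moved in both directions. Of 10 keratins of the list that passed, 4 were called higher and 2 lower, and the median was 0.66. Over all 12 KRT symbols past the filter the median was 0.38, with 7 above vehicle and 5 below. KRT80 was at 39.2 FPKM with vehicle, 112 with 5 µM and 158 with 10 µM. KRT7 was at 5.74 FPKM with vehicle, 14.8 with 5 µM and 22.3 with 10 µM. KRT14 and KRT16, both of stratified epithelium, passed the filter through the treated library, with 0.04 and 0.23 FPKM with vehicle and 2.01 and 2.2 FPKM with 5 µM. Against these, the paired keratins of simple epithelium were lower: KRT8 at 4.81 FPKM with vehicle, 1.12 with 5 µM and 1.44 with 10 µM. KRT18 was at 2.83 FPKM with vehicle, 0.6 with 5 µM and 0.68 with 10 µM, and passed the filter through the vehicle library. KRT15, the most abundant keratin with vehicle, was at 127 and 84.9 FPKM and short of the limit. Genes in no list that were called higher include EMP1, a tetraspan membrane protein, at 3.62 FPKM with vehicle, 15.2 with 5 µM and 23.5 with 10 µM. MUC13, a membrane mucin, was at 1.13 FPKM with vehicle, 5.69 with 5 µM and 12.3 with 10 µM, and CSTA, a protease inhibitor of the cornified envelope, was at 10.1 FPKM with vehicle, 33.7 with 5 µM and 47.8 with 10 µM. GSG1 was at 1.48 FPKM with vehicle, 8.78 with 5 µM and 13.8 with 10 µM.

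The other called genes belong to no list. Those higher with 5 µM were RASL10A, TSPYL2, NDUFA4L2, RPP14, CPA4, CLEC18A, AKNA, PLA1A, RGS16, SULT1A3, MTRNR2L3, LBH, PCDH1, BMX, CLIC3, SH3BGR and GPRC5A, besides 1 row named by a number only. Their log2(FPKM + 1) differences ran from 1.01 in GPRC5A to 1.64 in SH3BGR. For CLEC18A, SULT1A3 and SH3BGR, at least 50% of the 50-base sequences also occur in other genes. MTRNR2L3 carries the limit given further on for the other MTRNR2L genes. RGS16, a regulator of G protein signalling, was at 4.15 FPKM with vehicle, 10.4 with 5 µM and 13.1 with 10 µM. CPA4, a carboxypeptidase, was at 13.5 FPKM with vehicle, 29.8 with 5 µM and 33.4 with 10 µM. Those lower were CTLA4, GAS2L3, SLC13A4, RIMBP3B, RPS10-NUDT3 and MAGEA2B, besides 1 row named by a number only, and the last 3 named share most of their sequence with other genes. The row named by a number was lower by at least 4-fold. CTLA4, RIMBP3B and RPS10-NUDT3, at 0.56, 0.32 and 0.5 FPKM with 5 µM, passed the filter through the vehicle library. MAGEA2B, a cancer testis antigen, was at 24.8 FPKM with vehicle, 11.8 with 5 µM and 25 with 10 µM, with the vehicle and 10 µM libraries alike. GAS2L3, a cytoskeletal linker, was at 6.04 FPKM with vehicle, 2.45 with 5 µM and 2.91 with 10 µM.

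Matrix genes lay mostly above vehicle by less than 2-fold, and adhesion genes lay on both sides of it. Of 13 integrins, cadherins and claudins that passed, 6 lay above vehicle and 7 below, none was called, and the median was -0.01. SERPINE2, an inhibitor of serine proteases, was called higher, at 1.97 FPKM with vehicle, 5.82 with 5 µM and 8.63 with 10 µM. Of 17 collagens, laminins and matrix glycoproteins, 15 lay above vehicle and none was called, with a median of 0.18. COL3A1 was at 297 FPKM with vehicle, 434 with 5 µM and 454 with 10 µM and COL1A1 at 63.6 FPKM with vehicle, 85.8 with 5 µM and 98.5 with 10 µM. These 2 collagens also stand in the list of markers of other cells. The 18 measured markers of that list summed to 445 FPKM with vehicle, 609 with 5 µM and 634 with 10 µM, a sum made mainly of COL3A1, and the part of other cells in these values was not tested. The fibroblast markers DCN, at 0.31 and 0.31 FPKM with vehicle and 5 µM, and LUM, at 0.17 and 0.07, were near 0. Of 15 YAP and TAZ targets, 10 lay above vehicle and CYR61, a matricellular protein, was called higher, at 66.6 FPKM with vehicle, 169 with 5 µM and 163 with 10 µM. ANKRD1 was at 139.6 FPKM with vehicle, 218 with 5 µM and 169 with 10 µM. RHOB, a small GTPase and the called gene with the highest vehicle level, was at 117 FPKM with vehicle, 247 with 5 µM and 280.1 with 10 µM.

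The study's title points to MAPK signalling, the cascade from RAS through RAF and MEK to ERK. At the level of RNA the kinases themselves differed little: of 42 cascade genes 14 lay above vehicle, 28 below and none was called, with a median of -0.05. MAPK3 (ERK1) was at 29.4 FPKM with vehicle, 27.2 with 5 µM and 24.2 with 10 µM. MAP2K1 (MEK1) was at 28.5 FPKM with vehicle, 33.4 with 5 µM and 37.3 with 10 µM. For both of these the libraries lay within 1.5-fold of one another. MAP2K2 (MEK2) had a difference of 0.07 and BRAF of -0.26. The largest differences were in RASA1, a RAS GTPase-activating protein, at 27.2 FPKM with vehicle, 16.1 with 5 µM and 14.6 with 10 µM, and MAP2K6, a kinase of p38, at 7.45 FPKM with vehicle, 4.63 with 5 µM and 2.89 with 10 µM.

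Genes whose transcription ERK activity drives did not move one way. Of 18 that passed, 10 lay above vehicle and 8 below, none was called, and the median was 0.14, or 0.09 with GC and length trends removed. DUSP6, the phosphatase of ERK that serves as a readout of the pathway, was at 41.6 FPKM with vehicle, 43.3 with 5 µM and 40.8 with 10 µM. SPRY1, a feedback inhibitor, had a difference of 0.74 and ETV5, a PEA3 factor, 0.58. ETV1, of the same family, had -0.49 and PHLDA1 -0.54. Of 18 dual specificity phosphatases 14 lay above vehicle, with a median of 0.27 and no call, and the same removal gave 0.16. DUSP7, which acts on ERK, was below, at 38.3 FPKM with vehicle, 22.7 with 5 µM and 20.5 with 10 µM, and DUSP1, an immediate early phosphatase, was at 9.05 FPKM with vehicle, 13 with 5 µM and 17.1 with 10 µM. Of 20 immediate early and AP-1 genes 18 lay above vehicle and 2, CYR61 and ATF3, were called higher, with a median of 0.20, or 0.10 after it. JUN was at 30.4 FPKM with vehicle, 50.6 with 5 µM and 53.7 with 10 µM. EGR1 was at 4.19 FPKM with vehicle, 6.02 with 5 µM and 10.5 with 10 µM. ERRFI1, an inhibitor of the EGF receptor, was called higher, at 18.5 FPKM with vehicle, 39 with 5 µM and 57 with 10 µM. Phosphorylation was not measured here. Of 18 receptor tyrosine kinases that passed, 8 lay above vehicle and 9 below, with no call. FGFR1 was at 185 FPKM with vehicle, 134 with 5 µM and 108 with 10 µM.

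Genes of the p53 target list and of the BCL2 family, caspase and IAP list lay mostly above vehicle. Each of the 2 lists held 1 called gene. GADD45A, induced by DNA damage and by ATF4, was called higher, at 34.3 FPKM with vehicle, 73.3 with 5 µM and 88.6 with 10 µM, and the 21 p53 targets of the list had a median of 0.23, with 15 above vehicle. Of 26 BCL2 family, caspase and IAP genes, 18 lay above vehicle, 1 was called higher and none lower, with a median of 0.13, or 0.08 with GC and length trends removed. The BH3-only genes BBC3 (PUMA), with a difference of 0.85, BMF, with 0.85, and PMAIP1 (NOXA), with 0.65, stayed short of the limit. Differences in this list ran from -0.55 to 1.04, and 8 of its genes lay below vehicle.

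Several single regulators were called higher. KLF2, a transcription factor of quiescent cells, was at 10.3 FPKM with vehicle, 33.4 with 5 µM and 39.8 with 10 µM, while the other 9 genes of the KLF list that passed stayed short of the limit. TXNIP, the arrestin that binds thioredoxin and limits glucose uptake, was at 14.9 FPKM with vehicle, 42.7 with 5 µM and 71.8 with 10 µM, and no other gene of its list was called. Of 10 glucocorticoid-responsive genes that passed, 9 lay above vehicle and 2, TSC22D3 and ERRFI1, were called higher, with a median of 0.26. TSC22D3 (GILZ), a glucocorticoid-induced leucine zipper, was at 14 FPKM with vehicle, 42 with 5 µM and 40.7 with 10 µM. FKBP5, a standard target of the glucocorticoid receptor, was at 17.7 and 20.7 FPKM with vehicle and 5 µM. APOC1, an apolipoprotein, was at 6.31 FPKM with vehicle, 22.7 with 5 µM and 28.4 with 10 µM. Notch genes had a median of 0.24 without a call, or 0.14 with GC and length trends removed, with the ligand JAG1 at 8.45 FPKM with vehicle, 16.4 with 5 µM and 19.7 with 10 µM and the target HES1 at 10.7 FPKM with vehicle, 18.9 with 5 µM and 19.9 with 10 µM. LARP6, which binds collagen mRNA, was at 14.2 FPKM with vehicle, 38.7 with 5 µM and 65.1 with 10 µM. AGT, which encodes angiotensinogen, was also called higher.

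Genes of antigen presentation lay above vehicle. All 6 MHC class I and processing genes that passed did so, with a median of 0.41 and no call. B2M, the common light chain, was at 186 FPKM with vehicle, 233 with 5 µM and 243 with 10 µM. Among 19 interferon-stimulated genes 15 lay above vehicle, and IFI35 was called higher, at 1.97 FPKM with vehicle, 6.19 with 5 µM and 6.37 with 10 µM. NF-kB subunits, feedback genes and cytokines had a median of 0.13 over 9 genes, or -0.0038 with GC and length trends removed. Of these 9 genes 7 lay above vehicle, and none was called. OAS1, a sensor of double-stranded RNA and by far the most abundant of the interferon list, lay below vehicle, at 926 FPKM with vehicle, 666 with 5 µM and 519 with 10 µM.

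Replication-dependent histones were the lowest list. These genes are transcribed in S phase and their mRNAs normally end in a stem-loop without a poly(A) tail. The labels give total RNA as the starting material and no selection step. Of 26 measured genes 18 passed, 15 of these lay below vehicle, 9 were called lower and 1 higher, and the median was -0.97. HIST1H2AC was at 18.1 FPKM with vehicle, 4.12 with 5 µM and 2.93 with 10 µM. HIST1H2BD was at 22.7 FPKM with vehicle, 8.44 with 5 µM and 4.72 with 10 µM. HIST1H1C, a linker histone, was at 67.9 FPKM with vehicle, 32.9 with 5 µM and 25.6 with 10 µM. In each of these the vehicle library was the highest. HIST2H2BE was at 4.04 FPKM with vehicle, 1.24 with 5 µM and 0.97 with 10 µM. HIST2H2AC stayed level, at 6.42 FPKM with vehicle, 6.63 with 5 µM and 7.11 with 10 µM.

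Some histone values cannot be assigned to 1 gene. HIST1H4K was listed at 0 with vehicle, at 8.31 FPKM with 5 µM and at 4.23 with 10 µM, while the vehicle library had HIST1H4J at 11.3 FPKM and each treated library listed that gene at 0. These 2 genes share most of their 50-base sequences, the length of the reads, so the call of each is uncertain. HIST2H4A and HIST2H4B carry the same values in every library, as do HIST2H2AA3 and HIST2H2AA4, and in HIST1H2BK 74.1% of the 50-base stretches also occur elsewhere. Without genes that share at least 50%, the list median was -0.85. Histone variants made outside S phase had a median of -0.03 over 8 genes, with no call.

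Genes of mitosis lay below vehicle as a group. Of 60 genes of the spindle, kinetochore and mitotic entry, all of which passed, 54 were below vehicle, 4 were called lower and none higher, with a median of -0.40. PLK1, the kinase that drives mitotic entry and exit, was at 71.2 FPKM with vehicle, 32.7 with 5 µM and 33 with 10 µM. ASPM, which organizes spindle poles, was at 12.2 FPKM with vehicle, 4.45 with 5 µM and 4.92 with 10 µM. KIF20A, a kinesin of cytokinesis, was at 36.5 FPKM with vehicle, 16.3 with 5 µM and 18.2 with 10 µM. HMMR, a spindle protein, was at 17.1 FPKM with vehicle, 7.8 with 5 µM and 6.76 with 10 µM. For each of these 4 genes both treated libraries lay below vehicle and close to each other. Short of the limit, CENPF had a difference of -0.95, AURKA -0.83, TOP2A -0.69, CCNB1 -0.64 and MKI67 -0.71. CDK1 was level, at 58.4 FPKM with vehicle, 58.5 with 5 µM and 63.5 with 10 µM, as was FOXM1, at 76.5 FPKM with vehicle, 78.1 with 5 µM and 92.1 with 10 µM.

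The promoters of mitotic genes often hold the cell cycle genes homology region, at which the DREAM complex and MuvB with FOXM1 act in turn. Its letters TTTGAA, searched on both strands as above, occurred in 1274 of 9410 compared genes with a promoter (13.5%) and in 36 of the 52 mitosis genes with one (69.2%). They occurred in 7 of 24 lower genes (29.2%) and 7 of 44 higher genes (15.9%). The windows shown are of mitosis genes and of the histone HIST1H2BD (H2BC5 in RefSeq), upstream of the start and outside annotated exons, with the match in capitals. They were picked with the values known, from a larger number that meet this rule, to show the same letters in genes with differences from the lowest to near 0.
ASPM, minus strand, chr1:197146765-197146794: cggatgcaatcaTTCAAAtgaagcgccgcc
MKI67, minus strand, chr10:128126453-128126482: ttagcgccagaaTTTGAAtcttcgttttcg
TOP2A, minus strand, chr17:40418030-40418059: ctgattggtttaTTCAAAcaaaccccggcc
ESPL1, plus strand, chr12:53268256-53268285: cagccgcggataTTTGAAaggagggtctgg
KIF11, plus strand, chr10:92593090-92593119: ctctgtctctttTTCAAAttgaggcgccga
CKAP5, minus strand, chr11:46846336-46846365: gcccacaggcctTTCAAAtggaccaataaa
CDK1, plus strand, chr10:60778397-60778426: ctgattggctgcTTTGAAagtctacgggct
HIST1H2BD, plus strand, chr6:26158066-26158095: tgattaacctcaTTTGAAtaccgcatctat
ASPM differed by -1.28, MKI67, a proliferation marker, by -0.71 and TOP2A, a topoisomerase, by -0.69, while CDK1 differed by 0.0032 with the same letters in its window. ESPL1, the separase, had a difference of -0.15, KIF11, a spindle motor, -0.29, and CKAP5, a microtubule polymerase, -0.29.

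DNA synthesis genes lay mostly above vehicle, by small amounts. Of 45 genes of replication and nucleotide supply, 34 lay above vehicle and none was called, with a median of 0.11. TK1, thymidine kinase, was at 63.9 FPKM with vehicle, 96.8 with 5 µM and 101 with 10 µM, and RRM2, a subunit of ribonucleotide reductase, at 51.1 FPKM with vehicle, 65.8 with 5 µM and 70.9 with 10 µM. DNA repair genes were split evenly, 19 above and 19 below among 39. Of 21 genes in the list of G1 cyclins, CDK inhibitors and the RB family, 10 lay above vehicle and 11 below. The median of that list was -0.01, with no call. Its member CDKN2B, an inhibitor of CDK4 and CDK6, was at 8.97 FPKM with vehicle, 14.7 with 5 µM and 19 with 10 µM.

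Splicing regulators lay below vehicle by small amounts. Of 35 genes 30 were below, none was called, and the median was -0.25. HNRNPA2B1 was at 499 FPKM with vehicle, 333 with 5 µM and 355 with 10 µM. SRSF3 was at 136 FPKM with vehicle, 100.2 with 5 µM and 89.1 with 10 µM, and HNRNPA1 was at 1219 FPKM with vehicle, 925 with 5 µM and 781 with 10 µM. The kinase CLK3, which phosphorylates SR proteins, lay above, at 17.6 FPKM with vehicle, 25 with 5 µM and 25.9 with 10 µM. PPP1R10 (PNUTS), which brings protein phosphatase 1 to RNA polymerase II, was called lower, at 26.7 FPKM with vehicle, 9.25 with 5 µM and 6.24 with 10 µM, while the median of the 27 regulators of that phosphatase was 0.07. SENP3, a SUMO protease of the nucleolus, was short of the limit, at 186 FPKM with vehicle, 121 with 5 µM and 61.6 with 10 µM. PTPRZ1, a receptor phosphatase of neural progenitors, was called lower, at 17.3 FPKM with vehicle, 7.17 with 5 µM and 6.11 with 10 µM.

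Cholesterol synthesis genes lay below vehicle. Of 26 genes 23 were below, none was called, and the median was -0.20. HMGCS1, the HMG-CoA synthase of the mevalonate pathway, was at 45.4 FPKM with vehicle, 28.5 with 5 µM and 27.8 with 10 µM. INSIG1, which holds SREBP in the endoplasmic reticulum and is itself an SREBP target, was at 25.9 FPKM with vehicle, 16.2 with 5 µM and 14.9 with 10 µM. TM7SF2, a sterol reductase, was above, with a difference of 0.54. The desaturase SCD was at 56.4 FPKM with vehicle, 39.5 with 5 µM and 39.6 with 10 µM.

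Genes of mitochondrial energy supply were close to vehicle. The nuclear subunits of complex I had a median of 0.01 over 37 genes, those of complexes III and IV 0.01 over 21, and ATP synthase -0.05 over 16, with no call. UQCRFS1, the Rieske subunit of complex III, was at 104 FPKM with vehicle, 95 with 5 µM and 86 with 10 µM. DHODH, the mitochondrial enzyme of pyrimidine synthesis that feeds electrons to ubiquinone, was at 6.19 FPKM with vehicle, 6.27 with 5 µM and 6.01 with 10 µM. Genes of the TCA cycle and mitochondrial carbon metabolism had a median of 0.01 over 29 genes, with 1 called higher and none lower. Glycolysis and hypoxia-responsive genes, taken as 1 list, had a median of -0.0037 over 31 genes, with no call. HK1, a hexokinase, was at 33.4 FPKM with vehicle, 52.1 with 5 µM and 60.2 with 10 µM and GAPDH at 4424 FPKM with vehicle, 3612 with 5 µM and 3337 with 10 µM.

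The 10 largest gains and the 10 largest losses of FPKM were in abundant genes, none of them called. Summed over genes, gains came to 42549 FPKM and losses to 23058 FPKM, and the 10 largest made up 20.2% of the gains and 16.4% of the losses. Over all symbols the libraries differed in total, 487923 FPKM with vehicle and 507341.5 with 5 µM. That offset is part of the excess of gains, which is no measure of a general rise in expression. MTRNR2L2, a nuclear gene derived from the mitochondrial 16S rRNA, was at 5489 FPKM with vehicle, 7725 with 5 µM and 8512 with 10 µM, the largest gain. MTRNR2L8 was at 3195 FPKM with vehicle, 4319 with 5 µM and 4674 with 10 µM. MTRNR2L9 was at 2090.0 FPKM with vehicle, 2978 with 5 µM and 2845 with 10 µM. Reads from the mitochondrial rRNA and from these nuclear copies can be alike, so these 3 values may not be of these genes. The same holds for MTRNR2L3, which was called higher. How such reads were placed is not given in the sources used here. MFAP4, a microfibril protein, gained as well, at 722 FPKM with vehicle, 1153 with 5 µM and 1525 with 10 µM. The largest losses were in RPL41, at 4872 FPKM with vehicle, 4011 with 5 µM and 3093 with 10 µM, GAPDH and PPIA, which encodes cyclophilin A, at 2412 FPKM with vehicle, 1937 with 5 µM and 1713 with 10 µM. Cytosolic ribosomal proteins as a list had a median of 0.11 over 74 genes at 5 µM, with 59 above vehicle, and of -0.07 at 10 µM. After removal of the trends described below for GC content and length, the median at 5 µM was 0.0049.

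**Figure D4:**
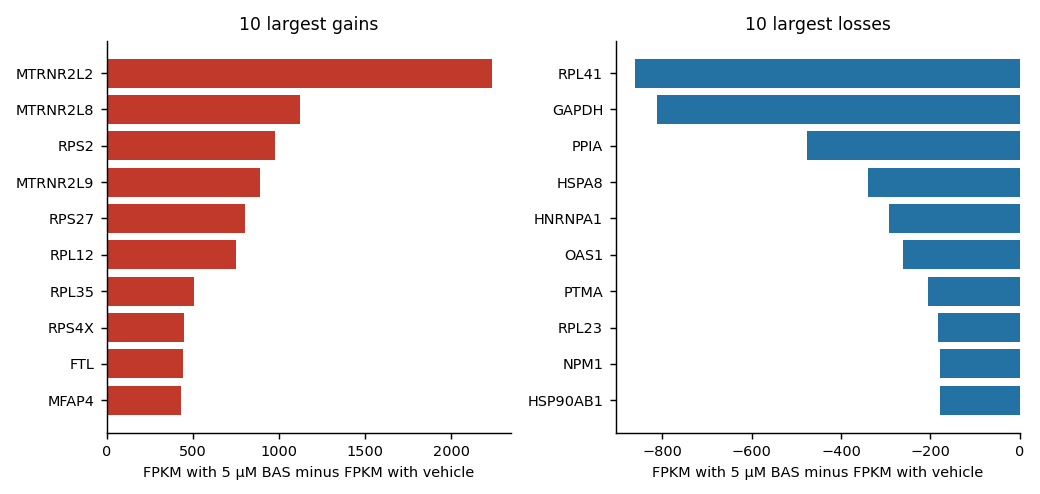
The 10 genes that gained most FPKM (left, red) and the 10 that lost most (right, blue) with 5 µM BAS, as FPKM with 5 µM minus FPKM with vehicle. MTRNR2L2, MTRNR2L8 and MTRNR2L9 and 5 ribosomal protein genes are among the gains, and RPL41, GAPDH and PPIA lead the losses.

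Neuroendocrine identity genes were mixed. Of 21 granule and neuronal genes, 11 lay above vehicle and 10 below, with none called. UCHL1, a neuronal deubiquitinase, was at 82.2 FPKM with vehicle, 131 with 5 µM and 177 with 10 µM, and CHGA, a granule protein, at 1.91 FPKM with vehicle, 4 with 5 µM and 6.41 with 10 µM. SYP, a vesicle protein, was at 17.3 FPKM with vehicle, 12.8 with 5 µM and 13.2 with 10 µM, and SYT1, the calcium sensor of release, at 6.35 FPKM with vehicle, 3.7 with 5 µM and 3.46 with 10 µM. Of 14 lineage transcription factors 9 lay below vehicle and none was called: POU4F1 was at 101 FPKM with vehicle, 69.9 with 5 µM and 65.7 with 10 µM, and NFIB at 80.5 FPKM with vehicle, 57 with 5 µM and 51.9 with 10 µM. MYC was at 35.1 FPKM with vehicle, 33.2 with 5 µM and 38.8 with 10 µM.

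The difference between the libraries also varied with the make-up of the transcripts. GC content and length of the longest protein-coding transcript were available for 11329 genes (98.7%). Across these genes, which share 2 libraries and are not independent, Spearman's rho of the difference was 0.30 with GC content and -0.33 with length. The median difference went from -0.09 in the 20% of genes with the lowest GC content to 0.13 in the 20% with the highest, and from 0.13 in the shortest 20% to -0.11 in the longest. Higher genes had a median GC content of 54.9% and a median length of 2375 bases, and lower genes 53.4% and 1992 bases, against 48.5% and 3432 bases over all. With both trends removed there were 52 higher and 30 lower genes. With the trends removed, the list medians were 0.44 for the integrated stress response, -1.10 for replication-dependent histones, -0.41 for mitosis, -0.21 for splicing and -0.30 for cholesterol synthesis. Medians that moved by over 1.5 times are given with their lists above where they were beyond 0.1 and the list is described. Of lists not described above, the tubulin median went from 0.16 to 0.02. That of LXR targets and apolipoproteins went from 0.22 to 0.12, and that of fatty acid oxidation, uptake and storage from 0.12 to 0.06. Among medians closer to 0, that of ATP synthase went to -0.14.

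**Figure D5:**
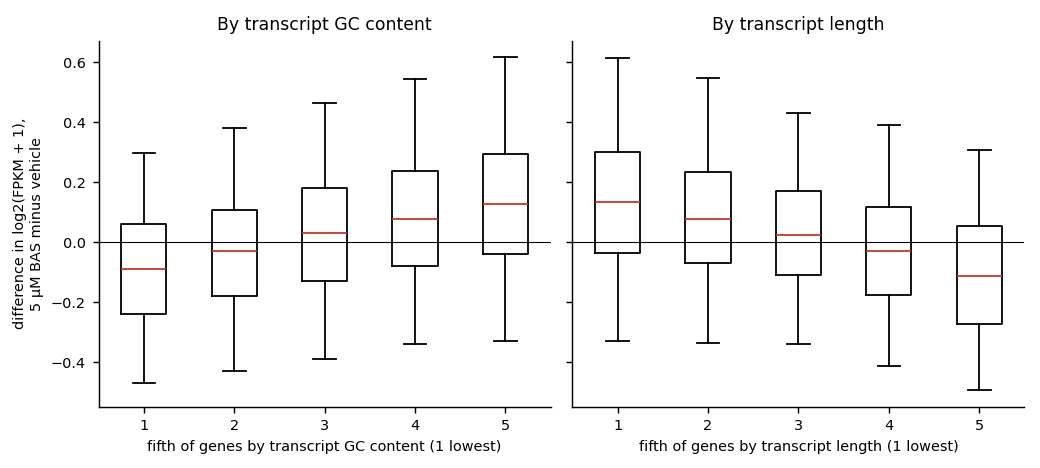
Difference in log2(FPKM + 1), 5 µM BAS minus vehicle, in 5 bins of equal gene number by transcript GC content (left) and transcript length (right). Boxes span the quartiles, red lines are medians and whiskers reach the 5th and 95th percentiles. The medians go from -0.09 to 0.13 with rising GC content and from 0.13 to -0.11 with rising length, and the spread within a bin is wider than that.

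By symbol family, 138 families had at least 10 genes past the filter. The histone (HIST) family had the lowest median, -1.02 over 21 genes, followed by the chromatin remodellers of the CHD family at -0.28, the SR splicing factors (SRSF) at -0.23 and the kinesins (KIF) at -0.22. At the other end were keratins (KRT) at 0.38 over 12 genes, interleukins and their receptors (IL) at 0.29, dual specificity phosphatases (DUSP) at 0.28 and KLF factors at 0.23. IL11RA, a cytokine receptor chain, was the IL gene called higher, at 3.76 FPKM with vehicle, 10.7 with 5 µM and 12.5 with 10 µM. The reference housekeeping genes had a median of 0.0026 over 16 genes, although single members ranged from -0.32 to 0.45.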

How the data were processed

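RNA of the H446 line was sequenced on single-end 50-base reads, 1 library each for vehicle, 5 µM and 10 µM BAS. The authors deposited 1 table per library, with gene symbols and FPKM, per the file headers. The submitters' processing notes name Trim Galore, BWA, Bowtie2, Cufflinks, Cuffdiff and the build hg19, without versions, with no roles. The treated columns carry codes of their own, so the doses rest on the labels and file titles. Depth is unknown, since the FPKM values gave no whole-read steps, and no interval could be computed. Tables were joined on gene symbol, summing rows of 2 duplicated symbols, and differences in log2(FPKM + 1) were computed where the mean reached 1 FPKM. With 1 library per group no statistical test was run.

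The comparison and gene lists were chosen with earlier results of these data known. Named genes are the 20 highest and 20 lowest differences, up to 6 genes of each list with the largest differences, the 10 largest gains and losses of FPKM, genes nearest the limits and a few set genes of the pathway. Some genes that the rule names are not reported here. Other called genes and others named outside this rule were picked with their values known. GENCODE 29 gave the length and GC content of transcripts and their shared 50-base stretches. Promoters came from the RefSeq table, which matched 9410 genes, 262 of them by an older symbol. Python 3.11.15, numpy 2.4.6, pandas 2.3.3 and matplotlib 3.10.9 were used, and the scripts were tested on simulated data. Other pseudocounts, filters, limits and scalings were tried.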

Additional observations from a re-analysis of the deposited data

How the results depend on the processing

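The counts of 61 higher and 28 lower genes moved most with the pseudocount, the filter and the limit. A pseudocount of 0.1 gave 130 higher and 61 lower genes. A filter at 5 FPKM gave 39 and 14, a limit of 1.5-fold 338 and 194, and a limit of 4-fold 3 and 2. Under the other alternatives the counts stayed within 1.5 times, from 52 to 86 higher and from 20 to 40 lower. These include scaling to a common total, median-ratio and quantile scaling, and 2 alternatives chosen after seeing the data, namely removal of GC and length trends and leaving out genes that share at least 50% of their 50-base sequences. No scaling moved the median of a list by more than 0.1. Of the 65 medians, 7 moved by more without a filter, 4 with the filter at 5 FPKM, 3 with a pseudocount of 0.1 and 2 with 0.5. Leaving out genes that share sequence moved 1, and taking the mean of the genes in place of the median moved 16. The median of secreted stress hormones was 0.70 without a filter and 1.30 with the filter at 5 FPKM. Removal of GC and length trends moved 10 of 65 list medians by more than 0.1, and the medians of the polyamine and NF-kB lists, both above 0.1 as reported, went to -0.03 and 0.00. Of 40 genes with the highest or lowest differences, 1, RPS10-NUDT3, came out short of the limit, under that removal, and none changed direction under any alternative it could be computed for. No replicate could be left out, and depth, which would limit the low genes, is unknown. No paired analysis was possible because each group is 1 library.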
